A study of Mus musculus with 6 samples.

Results

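Siglec receptors were followed in mouse macrophages with and without E-FABP, an epidermal carrier of fatty acids encoded by Fabp5. The members were all probe sets whose platform gene symbol is Siglec1, Siglecf, Siglece, Siglecg, Siglech, Cd33 or Cd22, which gave 10 probe sets for 7 genes, of 45037 probe sets tested. A probe set is a group of short probes on an Affymetrix array that reads 1 transcript or a few related ones. The study compared 3 E-FABP knockout samples with 3 wild-type samples, both described as C57BL/6 and taken from naive mice of 6 to 8 weeks. Bone marrow cells had been grown for 7 days with the growth factor GM-CSF at 20 ng/ml in medium with 5% serum, and all 6 samples, wild type included, then spent 18 h beside E0771 tumour cells, a breast cancer line from the mouse, which sat in an insert in the same well. The labels name no Cre or cell type for the knockout and do not say whether each sample came from its own mouse, so p-values speak of the spread between these samples.

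Siglecs are membrane lectins that bind sialic acids, the acidic sugars at the ends of glycan chains on cell surfaces. Most carry tyrosine motifs in their cytoplasmic tail that recruit phosphatases and dampen activation of immune cells, while a few lack them and signal through the adaptor encoded by Tyrobp. Siglec1, the sialoadhesin of macrophages, has a long extracellular part and no such inhibitory motif, and is known as an interferon-inducible gene. Siglecf marks eosinophils and alveolar macrophages, Siglech plasmacytoid dendritic cells, and Cd22 and Siglecg B cells, while Cd33 and Siglece are found on myeloid cells.

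The values were log2 expression values normalized by the authors. The median of all values was 5.63, and the arrays' medians lay between 5.60 and 5.64. Over all probe sets, which are not independent, pairs of arrays of 1 genotype had Pearson's r of 0.9965 to 0.9977, and pairs of different genotype 0.9914 to 0.9961. The brighter Fabp5 probe set read 8.13 to 8.39 in knockout and 14.41 to 14.47 in wild type, so every array matched its label. Macrophage markers were bright, with all 9 measured ones above the median of all values. The number of arrays limits the precision of every value below.

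Siglecf rose in the knockout cultures and was the sole member to pass the test. Of the 3 probe sets of Siglec1, 2 read lower in knockout on every array but stood just outside the threshold, at adjusted p of 0.0552 and 0.0612. The 3 are called sets A (1427706_a_at), B (1427668_at) and C (1422161_at) by falling mean level, and the 2 lower-reading ones were B and C. No member fell past the threshold. Of the 10 member probe sets 1 rose, 0 fell and 9 did not pass (limma, Benjamini-Hochberg adjusted p under 0.05 over all probe sets), and 4 had an unadjusted p under 0.05. Over all probe sets 3.75% were called in either direction, 2.06% higher and 1.7% lower, and 20.2% had an unadjusted p under 0.05. At an adjusted p under 0.1, 3 of the 10 would pass, against 8.38% of all probe sets. With 1 probe set per gene, 1 of 7 member genes was called, against 4.9% of 18193 genes. The median change of the 10 probe sets was -0.08, and that of all probe sets 0.00. The genotypes did not overlap in 4 of the 10 member probe sets, as in 26.9% of all probe sets. A count of 1 among so few members is therefore given as a description of single genes and not of the family.

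**Figure D1:**
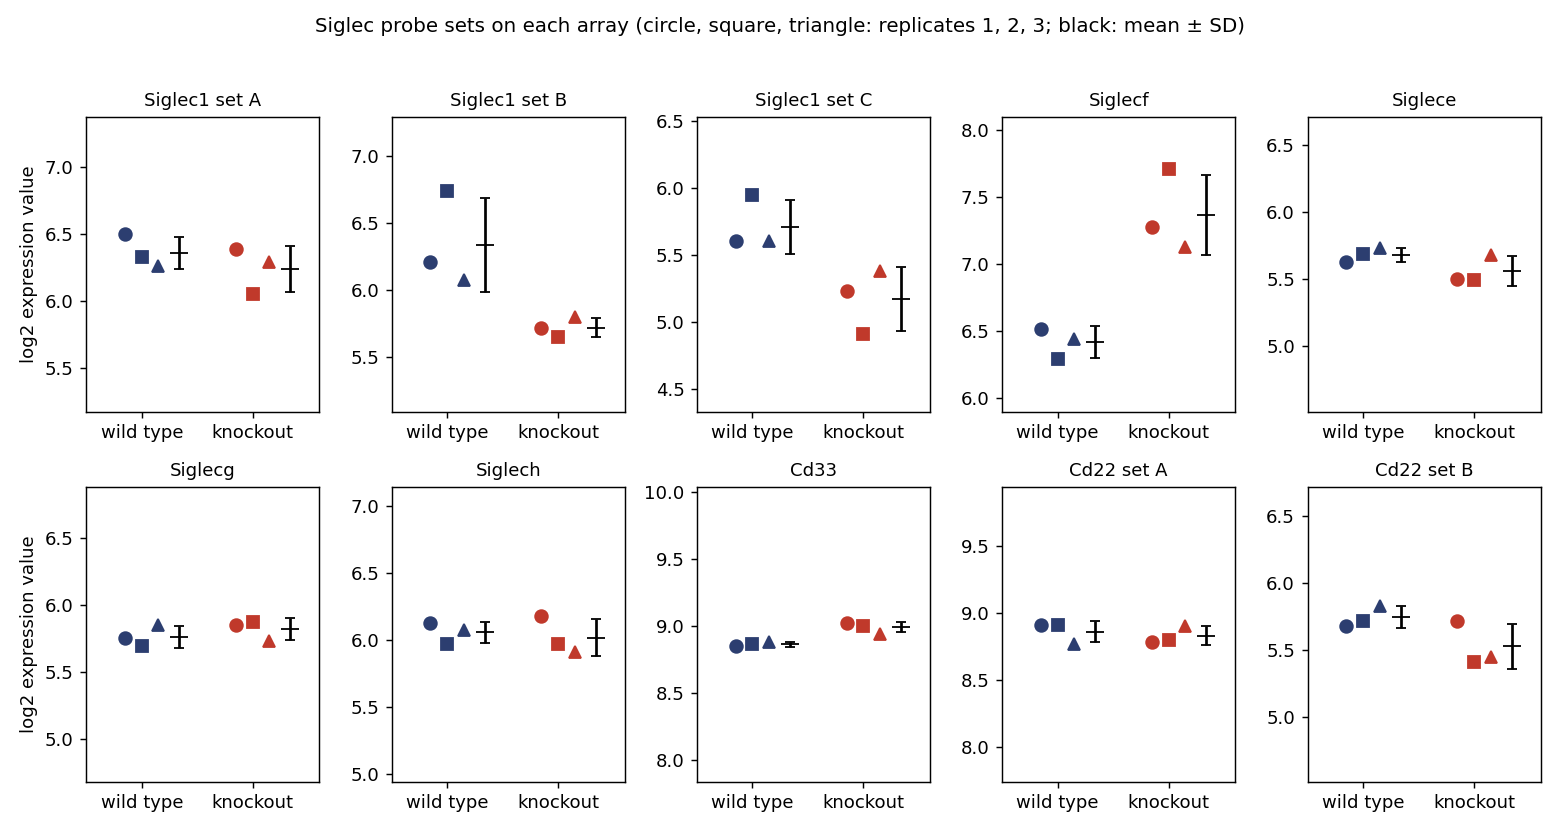
Log2 expression value (y axis) of the 10 Siglec probe sets on the wild-type (blue) and knockout (red) arrays, with circles, squares and triangles for replicates 1, 2 and 3 and black bars for the mean ± SD. Every panel spans the same number of log2 units; Siglecf separates by genotype upward in knockout, and Siglec1 sets B and C separate downward.

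The promoters of Siglecf and Cd33 are shown because these members, which lie in 1 stretch of chromosome 7 with other genes between them, share the longest run of letters among the members, while their values differed in size of change. Both are the 250 bases before the annotated start, from RefSeq on GRCm38.p6, 5′ to 3′ along the gene's strand, and the capitals mark the shared run of 16 bases.
Siglecf (chr7:43351091-43351340, plus strand): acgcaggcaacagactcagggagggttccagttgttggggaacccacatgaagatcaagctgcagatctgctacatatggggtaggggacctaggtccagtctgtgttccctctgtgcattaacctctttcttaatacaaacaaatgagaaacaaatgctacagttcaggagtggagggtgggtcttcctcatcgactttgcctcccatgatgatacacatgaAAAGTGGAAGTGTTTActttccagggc
Cd33 (chr7:43533172-43533421, minus strand): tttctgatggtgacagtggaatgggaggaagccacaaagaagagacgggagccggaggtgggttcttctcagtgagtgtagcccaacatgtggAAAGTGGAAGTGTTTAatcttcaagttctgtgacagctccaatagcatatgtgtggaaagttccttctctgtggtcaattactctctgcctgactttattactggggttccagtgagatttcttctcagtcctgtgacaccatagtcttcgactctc

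The shared run begins at position -27 from the start of Siglecf and at position -157 from that of Cd33. It occurs in 2 of 32851 promoter windows of 300 bases (250 before and 50 after the start), those of these 2 genes. The run was picked from these windows for its length, so this count does not test whether the sharing is unusual. The next longest run shared by windows of different members had 10 bases. The run holds GGAAGT, the core letters bound by ETS family factors such as PU.1 of myeloid cells, which on either strand were found in 23.8% of all windows. Of the 7 windows of the 6 members in the table, 3 held GGAAGT, those of Siglecf, Cd33 and Siglech. The letters TTCNNNGAA, the core bound by STAT factors, were in the window of Siglech and in 8.3% of all windows, searched on both strands as well, and did not overlap GGAAGT there. These matches describe letters in a window, not binding sites. Siglec1 had no window in the table.

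Siglecf (1424975_at), a receptor with inhibitory motifs in its tail, read 7.28, 7.71 and 7.13 in knockout, in the order of replicates 1, 2 and 3 used throughout. In wild type it read 6.52, 6.29 and 6.44. All knockout arrays lay above all wild-type arrays with a gap of 0.60, and knockout replicate 2 was the highest array and wild-type replicate 2 the lowest. The knockout mean was 7.37 ± 0.30 (SD, n = 3). That of wild type was 6.42 ± 0.12 (n = 3). The difference was 0.95 on the log2 scale (SE 0.14, 95% interval 0.64 to 1.27), a rise of 1.94-fold with a limma adjusted p of 0.0177. An exact permutation test over the 6 arrays (two-sided) gave p = 0.1, the smallest that 3 against 3 arrays allow. Limma's adjusted p was 0.0718 when knockout replicate 1 was left out and 0.0744 when wild-type replicate 2 was. It was 0.111 with all values floored at the 20th percentile, and each of these settings ended the call. Without knockout replicate 1 the difference was 1.00, and without wild-type replicate 2 it was 0.89. The floor, 4.07, lay below every Siglecf value and left the difference at 0.95, so it acted through the values of other probe sets. RNA came from whole cultures, so more cells of a type and more RNA per cell cannot be told apart.

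Markers of the cells known for Siglecf did not pass the test. With 1 probe set per gene, limma called 2.85% of all genes higher and 2.05% lower, and 23.4% had an unadjusted p under 0.05. Of 6 measured eosinophil markers, such as Epx and Prg2 of the granules, limma called 0, with 1 at an unadjusted p under 0.05. All 6 read below the median of all values on every array, and 2 read below the 20th percentile of all values (4.07) on every array. Their mean level ranged from 4.08 to 4.16 in knockout and from 4.20 to 4.30 in wild type. The part of eosinophils in the value of Siglecf was not tested. Of 9 alveolar macrophage markers, which include Marco and Car4, limma called 0, with 1 at an unadjusted p under 0.05. Their mean level was 8.49 to 8.66 in knockout and 8.56 to 8.65 in wild type, and these ranges overlapped.

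Some markers of other cell types differed on the same arrays. Of 10 dendritic cell markers 1 rose, Batf3, a transcription factor of this lineage, and 0 fell. Their mean level was 7.91 to 8.30 in knockout against 7.68 to 7.90 in wild type. With limma 5 had an unadjusted p under 0.05, and the mean was higher in knockout for 7 and lower for 3. Ccr7 (0.71, limma adjusted p = 0.0519), Ccl22 (0.67, 0.0544) and Dpp4 (0.71, 0.0826) changed more than Batf3 (0.53) but did not pass. Of 8 fibroblast markers 3 fell, Col1a2, Dcn and Col3a1, which code for matrix proteins, and the mean level was 4.94 to 5.07 against 5.51 to 5.65. Of 10 neutrophil markers 0 passed with limma, 9 had an unadjusted p under 0.05, and the mean level was 8.86 to 9.48 against 9.58 to 9.88. Of those 9, Mmp8 was higher in knockout, by 0.16, and the others were lower. Of 9 macrophage markers 2 fell, the phagocytic receptor genes Fcgr1 (-1.13) and Mertk (-0.46), and the mean level was 11.70 to 11.90 against 12.00 to 12.09. The other 7, Csf1r and Adgre1 included, differed by -0.12 (C1qb) to 0.04 (Itgam). None of these dendritic cell, fibroblast, neutrophil or macrophage markers read below the 20th percentile on every array. Col3a1, however, read 3.70 to 3.86 in knockout, below that percentile (4.07), and 4.16 to 4.38 in wild type. On every array 4 fibroblast, 2 neutrophil, 2 dendritic cell and 0 macrophage markers read below the median of all values. The part of these cell types in the value of Siglecf was not tested.

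The order of the knockout arrays in Siglecf, with replicate 2 highest and replicate 3 lowest, was also that of the dendritic cell list, whose mean deviation from the 6 arrays' mean was 0.09, 0.38 and 0.00 there. It was the inverse of that of 30 interferon-stimulated genes, which lay at -0.65, -1.38 and -0.17. It was likewise the inverse of that of the neutrophil list (-0.20, -0.60 and 0.02) and the macrophage list (-0.10, -0.22 and -0.02). The alveolar macrophage list (0.01, -0.10 and 0.07) also had the inverse order. Few orders of 3 arrays are possible, so such a match is not particular to 1 list. In wild type the dendritic cell list lay at -0.21, -0.24 and -0.02 and the interferon-stimulated list at 0.64, 0.98 and 0.58. There Siglecf was lowest on replicate 2, where the interferon-stimulated list was highest and the dendritic cell list lowest, but replicates 1 and 3 did not follow the order of the dendritic cell list or the inverse of the interferon-stimulated one.

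Among 337 genes above the median level with a range of at least 1 over the arrays, 5 had the profiles most like that of Siglecf by Pearson's r over the 6 arrays. They were Gpr183 (r = 0.992), a receptor for oxysterols that guides immune cells, Mcm7 (0.987), a subunit of the replication helicase, Reck (0.986), an inhibitor of matrix metalloproteinases, Mmd (0.985), and the semaphorin gene Sema6d (0.984). All 5 rose in knockout, with log2 changes of 0.66 to 0.78 and limma adjusted p of 0.0179 to 0.0374. Siglecf separated by genotype, so likeness to it favoured genes that rose, and these adjusted p are not a separate test. Both the genotype split and the high value of knockout replicate 2 enter these r values, which describe likeness over 6 arrays and carry no test.

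**Figure D2:**
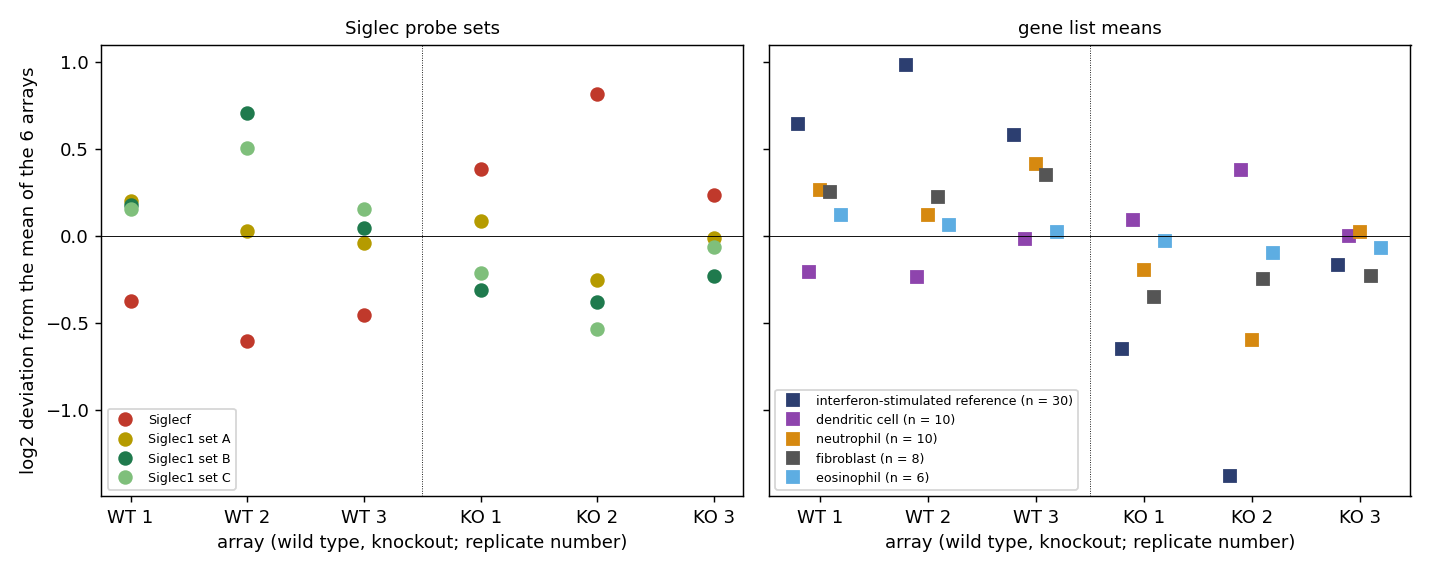
Deviation from the mean of the 6 arrays (y axis, log2) on each wild-type (WT) and knockout (KO) array, for Siglecf and the 3 Siglec1 probe sets (left) and for the means of 5 gene lists (right). Siglecf is highest on knockout replicate 2, where the interferon-stimulated list (-1.38) and Siglec1 are lowest, and lowest on wild-type replicate 2.

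Siglec1 was read by 3 probe sets that did not give the same change. Set B read 5.72, 5.65 and 5.80 in knockout (replicates 1, 2 and 3) and 6.21, 6.74 and 6.08 in wild type. Set C read 5.23, 4.91 and 5.38 in knockout and 5.60, 5.95 and 5.60 in wild type. In both, every knockout array lay below every wild-type array, knockout replicate 2 was the lowest array and wild-type replicate 2 the highest.

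Set B differed by -0.62 (SE 0.15, 95% interval -0.96 to -0.28, limma adjusted p = 0.0552) and set C by -0.54 (SE 0.13, 95% interval -0.84 to -0.23, limma adjusted p = 0.0612). Neither passed the threshold of 0.05, and both had an unadjusted p under 0.05. Without wild-type replicate 2 these differences were -0.42 and -0.42, and without wild-type replicate 3 set B passed with an adjusted p of 0.0453. The knockout mean of set C, 5.17, lies below the median of all values.

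Set A read 6.39, 6.05 and 6.29 in knockout and 6.50, 6.33 and 6.26 in wild type, and the genotypes overlapped. Its difference was -0.12 (SE 0.10, 95% interval -0.35 to 0.11, limma adjusted p = 0.569). On Affymetrix arrays the ending _a_at marks a set whose probes match alternative transcripts of 1 gene. Because its mean over the arrays was the highest of the 3, set A stood for the gene where 1 probe set per gene was counted. Array by array, set B minus set A was -0.52 ± 0.14 (SD, n = 3) for knockout against -0.02 ± 0.37 (n = 3) for wild type, which differ by -0.50 (exact permutation test, two-sided, p = 0.1, the smallest possible). For set C minus set A the difference was -0.42 (exact permutation p = 0.1), and for set B minus set C it was -0.08 (exact permutation p = 0.5). The transcripts that each set reads were not analysed here.

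The genes with profiles most like that of Siglec1 (set B) among 338 were Arid5a (r = 0.995), an RNA-binding protein, the transcription factor gene Batf2 (0.990), the channel gene Calhm6 (0.987), the ligand gene Tnfsf8 (0.986) and the cytokine receptor gene Il15ra (0.985), over 6 arrays and with no test. Of these, Batf2, Calhm6 and Il15ra fell, with limma adjusted p of 0.0223 to 0.0357, while Arid5a (-0.75, limma adjusted p = 0.0696) and Tnfsf8 (-1.06, limma adjusted p = 0.0604) did not pass. All 5 were highest on wild-type replicate 2. Set B separated by genotype, so likeness to it favoured genes that read lower in knockout. The adjusted p of these 5 genes are therefore not a separate test. In the reference list of interferon-stimulated genes, chosen with its fall in these data already known, 28 of 30 fell with a median of -1.16. The Siglec1 differences were smaller than that median, but the levels were unlike. The mean of that list was 9.36 to 11.71 over the arrays, while sets B and C read 4.91 to 6.74, near the median of all values. The number that fell in that list depended on the setting and on single arrays. It was 0 with the floor at the 20th percentile, which altered no value of these genes. With the replicate number as a block it was 0, and with trend and robust variances 5. It was 0 when wild-type replicate 2 or knockout replicate 1 was left out. Leaving out wild-type replicate 1 gave 7, and replicate 3 of that genotype gave 16. Leaving out knockout replicate 2 gave 23, and replicate 3 of that genotype gave 30. In the other settings tried the number was 23 to 29. Calls over all probe sets, 1691, became 40 when knockout replicate 1 was dropped, but 3126 with trend and robust variances. With all 6 arrays, all 30 genes read lower in knockout with no overlap of the genotypes, and had an unadjusted limma p under 0.05. The neutrophil, macrophage and fibroblast lists had the lower mean levels in knockout given above, and their part in the Siglec1 values was not tested.

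**Figure D3:**
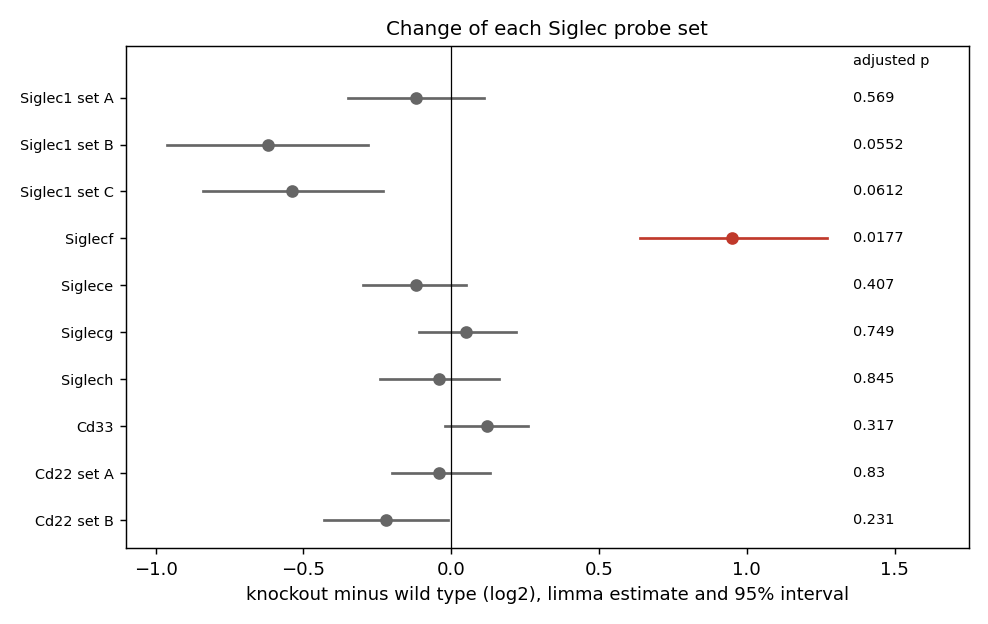
Change in knockout against wild type (x axis, log2) for the 10 Siglec probe sets, with limma's estimate (points) and 95% interval (lines), and the adjusted p at the right. Siglecf (red) passed the threshold, at 0.95; Siglec1 sets B and C lie at -0.62 and -0.54 with intervals below 0, and the intervals of most other sets include 0.

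Cd33 and Siglece, receptors of myeloid cells, did not pass. Cd33 (1450513_at) was among the brighter members and read 8.94 to 9.02 in knockout and 8.85 to 8.88 in wild type. Its genotypes did not overlap, with a gap of 0.06, and the difference was 0.12 (SE 0.06, 95% interval -0.02 to 0.26, limma adjusted p = 0.317). A rise of more than 1.20-fold lies outside that interval. Siglece (1421463_at) read 5.50, 5.49 and 5.68 in knockout and 5.63, 5.69 and 5.73 in wild type, close to the median of all values. Its genotypes overlapped and the difference was -0.12 (SE 0.08, 95% interval -0.30 to 0.05, limma adjusted p = 0.407).

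Cd22 and Siglecg, inhibitory receptors known from B cells, did not pass either. The brighter Cd22 probe set, set A (1419768_at), read 8.78, 8.80 and 8.90 in knockout and 8.91, 8.91 and 8.77 in wild type, and the genotypes overlapped. The difference was -0.04 (SE 0.07, 95% interval -0.20 to 0.13, limma adjusted p = 0.83). Set B (1419769_at) read 5.72, 5.41 and 5.45 in knockout and 5.68, 5.72 and 5.83 in wild type, also with overlap. It differed by -0.22 (SE 0.09, 95% interval -0.43 to -0.01, limma adjusted p = 0.231; unadjusted p = 0.0436).

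Siglecg (1435955_at) read 5.85, 5.87 and 5.73 in knockout and 5.75, 5.69 and 5.85 in wild type, a difference of 0.05 (SE 0.07, 95% interval -0.11 to 0.22, limma adjusted p = 0.749). Its genotypes overlapped and its level was close to the median of all values. Of 9 B cell markers measured, limma called 0, with 2 at an unadjusted p under 0.05. Of these, 6 read below the median of all values on every array, among them Cd79a and Pax5, which define the lineage. The mean level of the B cell list was 5.12 to 5.18 in knockout and 5.15 to 5.30 in wild type. Levels of different probe sets do not order genes, and the part of B cells in the Cd22 and Siglecg values was not tested.

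Siglech (1436131_at), which pairs with the adaptor of Tyrobp, read 6.18, 5.97 and 5.91 in knockout and 6.13, 5.97 and 6.08 in wild type. The genotypes overlapped, and the difference was -0.04 (SE 0.09, 95% interval -0.24 to 0.16, limma adjusted p = 0.845). Of 9 plasmacytoid dendritic cell markers other than Siglech, 2 rose and 1 fell. Spib, a transcription factor of plasmacytoid dendritic and B cells, rose by 0.76 (SE 0.16, limma adjusted p = 0.0363), and Pacsin1 by 0.67 (SE 0.10, limma adjusted p = 0.0181). Tcf4, the transcription factor that defines the plasmacytoid lineage, went the other way, at -0.57 (SE 0.12, limma adjusted p = 0.0424). The mean level of the list was 6.60 to 6.69 in knockout and 6.57 to 6.60 in wild type, and the median change was -0.05.

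Siglecf, Siglecg, Cd33 and Siglece lie in this order on chromosome 7, where the RefSeq annotation also places Siglech and Cd22, while Siglec1 is on chromosome 2 and Fabp5 on chromosome 3. From Siglecf to Siglece the annotation lists 20 genes, of which 15 had a probe set of their own. Among the 11 that are not members, limma called 0, with 3 at an unadjusted p under 0.05. Their changes lay between -0.22 and 0.22 with a median of 0.00. The rise of Siglecf was therefore larger than that of any measured gene between it and Siglece, its next neighbour Siglecg (0.05) included.

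**Figure D4:**
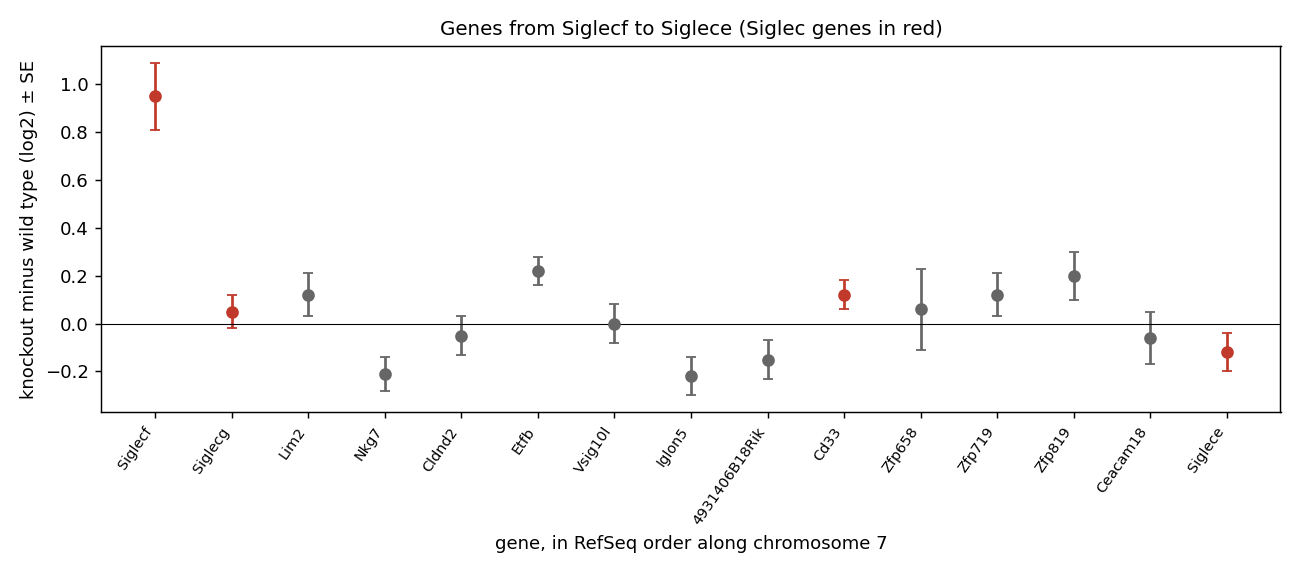
Change in knockout against wild type (y axis, log2, limma estimate ± SE) for the 15 measured genes from Siglecf to Siglece in their RefSeq order on chromosome 7, with members in red. Siglecf stands at 0.95 and the 11 genes that are not members lie between -0.22 and 0.22.

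The genes that make and handle sialic acid, which Siglecs bind as a family, were chosen as lists for their roles. Of 7 genes of sialic acid supply 2 rose, 0 fell and 5 did not pass, while 5 had an unadjusted p under 0.05, with a median of 0.24 where that of all genes was 0.01. Nanp, the phosphatase that releases free sialic acid at the end of its synthesis, read 8.35, 8.45 and 8.33 in knockout and 8.07, 7.87 and 8.09 in wild type. It rose by 0.37 (SE 0.08, limma adjusted p = 0.0403). Npl, the lyase that breaks sialic acid down, read 7.82, 7.92 and 7.90 in knockout and 7.63, 7.41 and 7.51 in wild type, and rose by 0.36 (SE 0.08, limma adjusted p = 0.0381). An enzyme of synthesis and one of breakdown thus rose by similar amounts, and the genotypes overlapped in neither.

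The carrier gene Slc35a1, which moves activated sialic acid into the Golgi, differed by 0.28 (limma adjusted p = 0.0762), the synthase gene Nans by 0.24 (limma adjusted p = 0.207) and the hydroxylase gene Cmah by -0.23 (limma adjusted p = 0.137). The number past the threshold in this list was 0 without each of the 6 arrays in turn and 0 after quantile normalization. It was also 0 with the floor at the 20th percentile, with the replicate block and with a change of at least 1. It stayed 2 with median centring, array weights or no _s_at or _x_at sets. It was 3 with probe sets above the median only, trend and robust variances, probe sets averaged by gene or an adjusted p under 0.1. The dendritic cell, fibroblast, neutrophil and macrophage lists had the mean levels given above on the same arrays, and their part was not tested.

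Sialyltransferases, which attach sialic acid to glycans in linkages that differ between Siglecs, showed no call with limma among 20 measured, with 7 at an unadjusted p under 0.05 and a median of 0.01. The smallest p-values belonged to St6galnac6 (0.32, limma adjusted p = 0.0554), St3gal3 (0.39, limma adjusted p = 0.0601) and St6galnac4 (-0.27, limma adjusted p = 0.0894). The mean was higher in knockout for 10 of them and lower for 10. Limma also called 0 of 5 genes of sialidases and sialic acid acetylation, with 0 at an unadjusted p under 0.05. Their changes lay between -0.18 (Neu3, a sialidase) and 0.11 (Casd1, an acetyltransferase).

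Of 7 genes listed as protein ligands 0 passed with limma, with 1 at an unadjusted p under 0.05. Cd24a, which codes for a sialylated ligand of Siglecg, read 13.21, 13.31 and 13.24 in knockout and 13.00, 12.83 and 13.08 in wild type. Its genotypes did not overlap, and the difference was 0.29 (SE 0.08, limma adjusted p = 0.0859). Of 5 other sialic acid binding receptors limma called 0, with 0 at an unadjusted p under 0.05. Their changes lay between -0.16 (Selp, a selectin) and 0.12 (Pilra, a paired inhibitory receptor). Mag (0.11) was counted both in this list and among the protein ligands, with the same probe set.

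Among 12 adaptors and signalling genes downstream of Siglecs limma called 0, with 3 at an unadjusted p under 0.05 and a median of 0.02. These 3 were the kinase gene Fgr (0.21, limma adjusted p = 0.117), the ubiquitin ligase gene Trim27 (0.25, limma adjusted p = 0.125) and the signalling inhibitor gene Socs3 (-0.26, limma adjusted p = 0.217). Tyrobp differed by 0.09 (95% interval -0.05 to 0.23) and Ptpn6, which codes for the phosphatase recruited by inhibitory Siglecs, by -0.04 (95% interval -0.20 to 0.12).

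**Figure D5:**
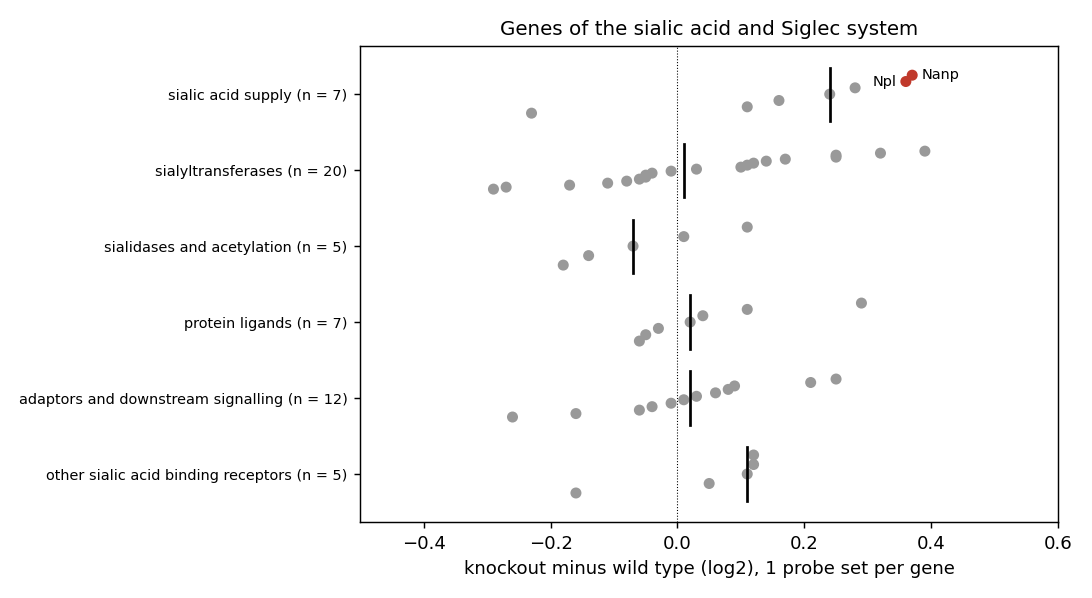
Change in knockout against wild type (x axis, log2) for each measured gene (points) of 6 lists of the sialic acid and Siglec system, with 1 probe set per gene and black bars for the list medians. Red points passed limma's threshold; they are Nanp and Npl in the list of sialic acid supply, whose median is 0.24.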

How the data were processed

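Total RNA of 6 samples was amplified and biotin-labelled with a kit for 3' expression arrays of Affymetrix, per the labels' protocols. The authors deposited normalized log2 values, 1 for each array and probe set. The submitters' processing notes name GCRMA 2.30.0, RMA, affy 1.36.1 and limma 3.14.4 with no role for each. Which of GCRMA and RMA made the values is not given in the sources at hand. The 2 methods differ at low values, so changes of dim probe sets depend on it. No column was left unmapped and no array repeated another.

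Of 45101 probe sets, 64 controls were left out. Genes were named from the platform annotation, which gave 1 gene for 34945 probe sets, several for 932 and none for 9160. Where 1 probe set per gene was used, it was the one with the highest mean. The test of genotype was limma 3.58.1 in R 4.3.3 (eBayes after lmFit, with no other term, prior degrees of freedom 5.04), over all 45037 probe sets, with Benjamini-Hochberg adjustment and a threshold of 0.05. Intervals and SEs are limma's and are not adjusted for the number of probe sets. The fit was tested on simulated arrays. Exact permutation tests used scipy 1.17.1. Promoter windows came from RefSeq (GRCm38.p6), and its gene table gave chromosomes and gene order.

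Members, lists and tests were chosen with earlier results of these data known. The genes named were the members, up to 6 genes past the threshold and up to 3 others with the smallest p in each related list, and the 5 profiles most like those of the 2 members with the smallest p. Markers, neighbours, the listed Tyrobp, Ptpn6 and the promoter pair were named after their values or letters were seen, and not all genes the rule allows are described. Alternatives were quantile normalization, median centring, probe sets above the median only, a floor at the 20th percentile, trend and robust variances, array weights, a replicate block, no _s_at or _x_at sets, probe sets averaged by gene, each array left out, an adjusted p under 0.1 and an absolute log2 change of at least 1.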

Additional observations from a re-analysis of the deposited data

How the results depend on the processing

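Siglecf was higher in knockout under every alternative, by 0.78 to 1.08, with limma adjusted p of 0.00492 to 0.111. It lost its call with the floor at the 20th percentile (0.111), with the replicate block (0.0538) and without knockout replicate 1 or wild-type replicate 2. The number of member probe sets past the threshold, 1, became 2 with median centring, 2 with probe sets above the median only, 3 with trend and robust variances, 3 at an adjusted p under 0.1, 0 with the floor, 0 with the replicate block and 0 with a change of at least 1. It was 0 to 2 when each array was left out. The number of member genes, 1, became 0 with the floor, 0 with the replicate block and 0 with a change of at least 1, was 0 to 1 when each array was left out, and was 1 in the other settings. The sets added were those of Siglec1, set B (0.0316 with trend and robust variances, 0.206 with the floor) and set C (0.0347 and 0.21). The mean of the 3 Siglec1 sets differed by -0.43 (limma adjusted p = 0.0504). Siglech, at -0.04, was -0.12 to 0.01 when each array was left out, with 0.01 without knockout replicate 3 (limma adjusted p = 0.963), and no other member changed direction. Over all probe sets the calls, 1691, were 71 with the floor, 92 with the replicate block, 2692 among probe sets above the median, 3126 with trend and robust variances and 40 without knockout replicate 1. Apart from the sets tested, the changes in threshold and the arrays left out, the cause of these differences was not tested. The floor, 4.07, lay below every value of the member probe sets and of the interferon-stimulated and sialic acid supply lists. It therefore altered none of those values, and reached their adjusted p only through other probe sets. Sialyltransferases had 3 calls among probe sets above the median, 2 with trend and robust variances and 4 at an adjusted p under 0.1, against 0. They had 1 call each with quantile normalization, median centring, probe sets averaged by gene, and knockout replicate 3 left out. Same-numbered samples of the genotypes had correlations of deviations of -0.0637, -0.0431 and -0.132, so the replicate numbers were not taken to pair the samples. Probe sets near or below the median of all values give only limited evidence on size, since no background level was used here.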
